A study of Mus musculus with 288 samples.

Results

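Claudins and their partners of the tight junction were examined in single mouse lung cells: the claudins Cldn3, Cldn4, Cldn7, Cldn10 and Cldn18, occludin (Ocln) and the scaffold protein ZO-1 (Tjp1), 7 of the 24781 genes of the count table. Every cell came from C57BL/6 animals aged 4 months with 2 transgenes, Scgb1a1-CreER, an inducible Cre whose promoter is that of a club cell secretoglobin, and Rosa26-mTmG, a reporter that switches colour in cells where Cre has acted. The sort described in the labels took lung cells positive for Epcam and for Scgb1a1, low in CD24, and negative for CD45 (leukocytes) and CD31 (endothelium). The table holds 286 sorted wells and 2 negative control wells of medium. A promoter-driven lineage label marks any cell in which Scgb1a1 was active when the drug was given, so it does not by itself name a cell's present type. The labels name no animal, no drug schedule and no batch, so all wells were treated as 1 sample, no p-value was made from wells, and every interval covers counting error only.

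The 227 wells with more than 10 times the total of the higher control well were kept. They were split by 2 genes that are not among the 7. Sftpc wells (63 wells) held Sftpc, the surfactant protein C gene of alveolar type 2 cells, at 1% of their total or more. Scgb3a1 wells (74 wells) held Scgb3a1, a secretoglobin of airway secretory cells, at 1% or more. The remaining 90 are called other wells. No well passed both limits. The lowest Sftpc share inside its limit was 2.07% and the highest outside it was 0.734%, and for Scgb3a1 these shares were 1.01% and 0.876%. Median totals were 3529 counts in Sftpc wells (range 2384 to 8806), 6940.5 in Scgb3a1 wells (3376 to 15088) and 5406 in other wells (2419 to 9718). The control wells held 41 and 234 counts, and none of them from the 7 genes.

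Markers that the split did not use also set Sftpc wells and Scgb3a1 wells apart. The alveolar protease gene Napsa had 2958 CPM (its counts per 1e+06 pooled counts of the class) in Sftpc wells, 0 in Scgb3a1 wells and 25.7 in other wells, and the club cell cytochrome Cyp2f2 had 2082, 13502 and 20099 CPM. Of the airway secretory genes listed with Scgb3a1, Bpifa1 had 54.0, 27752 and 39.6 CPM and Reg3g 16.6, 6538 and 21.8 CPM. Muc5b had 8.31, 2375 and 89.1 CPM and Tff2 4.15, 2547 and 31.7 CPM in the same order. Markers of cell types outside the gate were low, with the endothelial list of 6 genes summing to 12.5, 3.90 and 29.7 CPM and the immune list to 4.15, 1.95 and 9.90 CPM. Ptprc and Pecam1 were at 0 in all 3 classes. Wells with at least 3 counts of a list of ciliated cell genes numbered 2, 1 and 8 in Sftpc, Scgb3a1 and other wells. The classes also lay unevenly over the table. In its 3 successive sets of 96 columns there were 6, 17 and 40 Sftpc wells, 38, 31 and 5 Scgb3a1 wells, and 38, 33 and 19 other wells. These sets are column positions and not labelled batches.

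Tight junctions seal the space between neighbouring epithelial cells near their apical side. Claudins are membrane proteins with extracellular loops that pair across the gap, and the mix of claudins in a cell sets how readily ions pass between cells. Occludin is a second membrane component, and ZO-1 links claudins and occludin to the actin cytoskeleton. In the lung, Cldn18 is known as a claudin of the alveolar epithelium, where it limits leak into the air space, and Cldn3, Cldn4 and Cldn7 are known from alveolar and airway epithelium alike.

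The 5 claudins fell into separate patterns over the classes. Tjp1, counted in 52 of 227 wells, was called in no comparison, and Ocln, counted in 18, had too few counts to compare. Cldn18 counts lay almost wholly in Sftpc wells. Cldn10 and Cldn4 showed the reverse, with counts in Scgb3a1 and other wells and next to none in Sftpc wells. Cldn3 was present in most wells of each class, and Cldn7 was found in each class with its highest level in Scgb3a1 wells. A well held counts of a median of 2 of the 7 genes in Sftpc wells, 3 in Scgb3a1 wells and 3 in other wells, and at most 4, 5 and 5. The 3 wells with none of them were all Sftpc wells, the class of lowest totals.

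**Figure D1:**
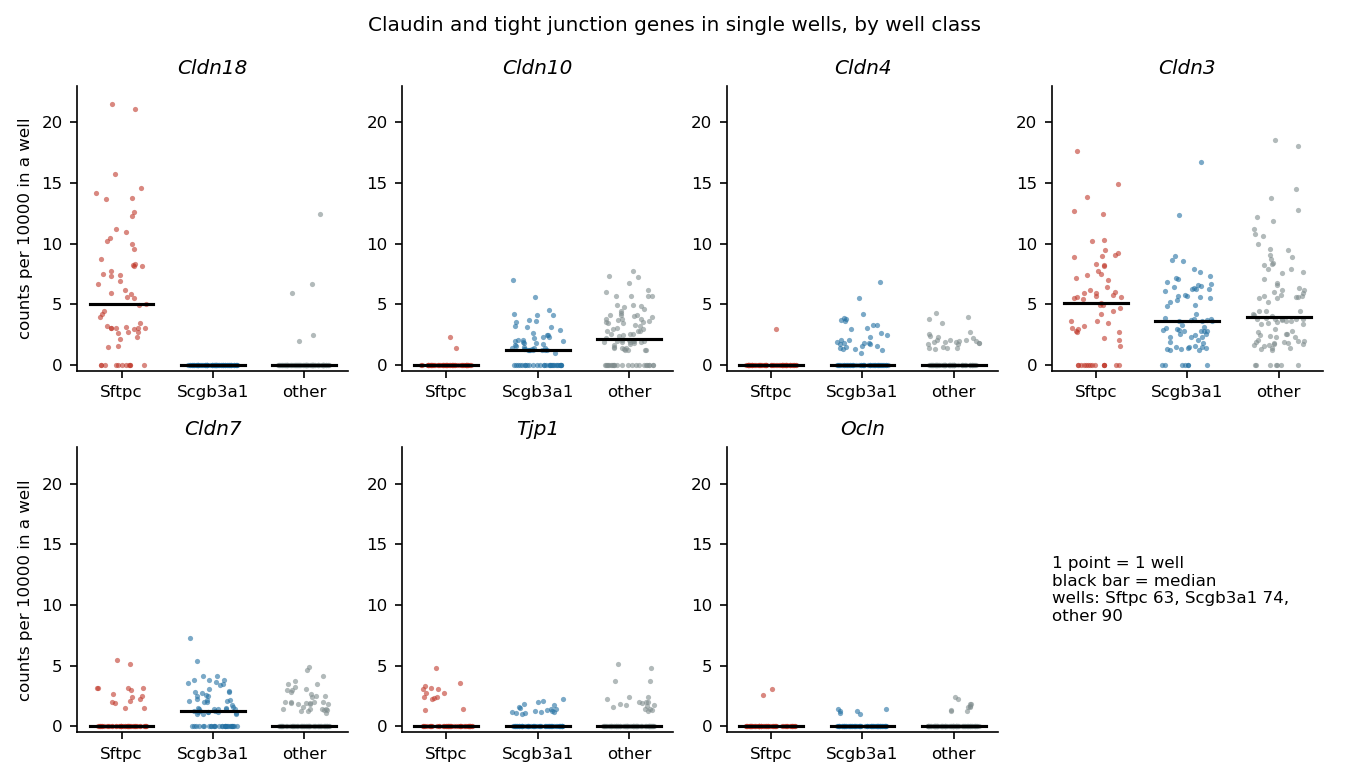
Counts per 10000 of a well's total (vertical axis) for each of the 7 genes, 1 point per well and a black bar at the class median, with Sftpc, Scgb3a1 and other wells side by side. Cldn18 points above 0 lie in 52 of 63 Sftpc wells, 0 of 74 Scgb3a1 wells and 5 of 90 other wells, while Cldn10 points above 0 lie in 2, 44 and 67 wells.

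A gene was called higher or lower between classes when the ratio of pooled CPM was at least 2-fold, its exact 95% binomial interval left out 1, and the gene had 20 counts or more over the pair of classes, which is what measured means here. This is a rule of size and counting error and not a test across animals. For Sftpc over other wells, 14.6% of 3854 measured genes were called higher and 7.34% lower. With TMM scaling (trimmed mean of M values, which resets the class totals from the bulk of the genes) 373 genes were higher and 423 lower in place of 563 and 283, and the median log2 ratio of all genes was -0.14 in place of 0.18. Of the 6 measured members, 1 was higher (Cldn18), 2 were lower (Cldn10 and Cldn4) and 3 were neither, and these 3 calls were the same with TMM factors. Their median log2 ratio was -0.05, against 0.18 over all measured genes. For Scgb3a1 over other wells, 6.77% of 4536 measured genes were called higher and 7.12% lower, and 0 of 5 measured members were called in either direction, with a median log2 ratio of -0.28 against -0.02 over all genes. For Sftpc over Scgb3a1 wells, 17.3% of 3834 measured genes were called higher and 10.5% lower (431 and 624 genes with TMM scaling, in place of 664 and 402), and the same 3 members were called in the same directions as against other wells. These comparisons share their wells, so the values are given side by side and not as independent evidence.

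**Figure D2:**
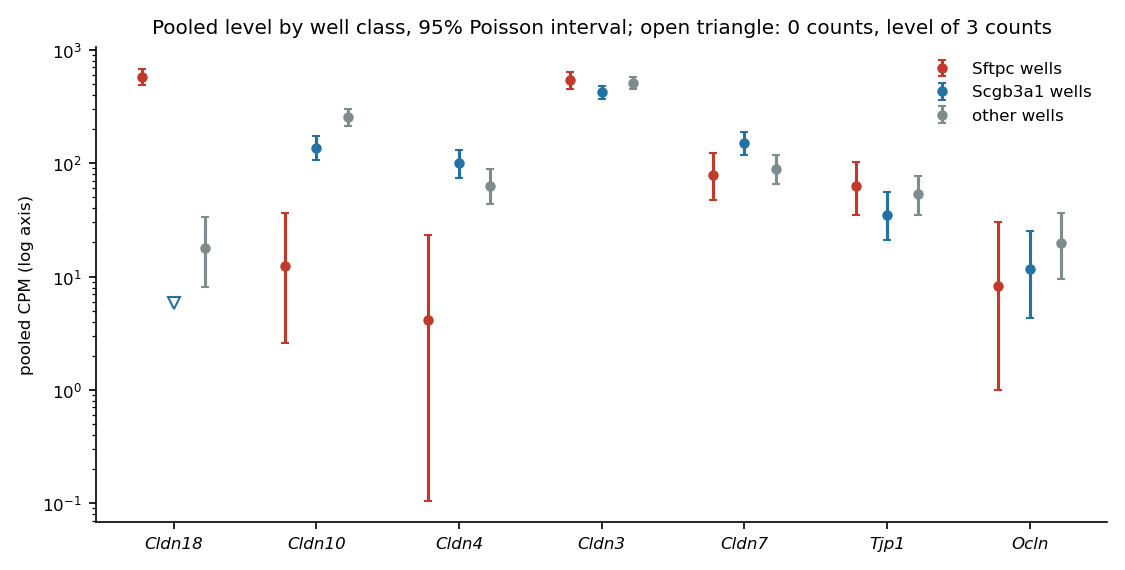
Pooled CPM of each gene on a log axis in Sftpc, Scgb3a1 and other wells, as points with exact 95% Poisson intervals. The open triangle is the level of 3 counts, 5.85 CPM, for Cldn18 in Scgb3a1 wells, where no count was found, while Sftpc wells are at 578 CPM.

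Cldn18 (chromosome 9, 99689461 to 99717267, minus strand, GENCODE M21 on GRCm38) was the member that was higher in Sftpc wells. A Sftpc well held 0 to 7 counts of it with a median of 2, and 52 of 63 wells held at least 1 (82.5%, exact 95% interval 70.9 to 90.9%). Among Scgb3a1 wells 0 of 74 held a count, a count of 0 that allows up to 4.05% of wells by the rule of 3 wells in 74, and 5 of 90 other wells did (5.56%, 1.83 to 12.5%). Sftpc wells were thus the class with Cldn18 although they had the lowest totals. Pooled levels were 578 CPM in Sftpc wells (486 to 682), 0 CPM in Scgb3a1 wells, where 3 counts would be 5.85 CPM, and 17.8 CPM in other wells (8.15 to 33.8). The ratio of Sftpc to other wells was 32.4-fold (16.6 to 72.4). That of Sftpc to Scgb3a1 wells was 98.8-fold with 3 counts put in for the class at 0, and its 95% lower limit was 79.3-fold.

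Sftpc wells had the highest pooled Cldn18 level in each set of columns, and that level was not the same across the sets. It had 179 CPM in Sftpc wells of set 1 (65.6 to 389, 6 counts over 6 wells), 489 CPM in set 2 (337 to 687) and 716 CPM in set 3 (583 to 871). The intervals of sets 1 and 3 do not overlap. Other wells had 0, 4.54 and 94.0 CPM in sets 1, 2 and 3, and 8 of their 9 counts lay in set 3. Sftpc wells thus had their highest level in the set where other wells had theirs. The log2 ratio of Sftpc over other wells was 6.75 in set 2 and 2.93 in set 3. In set 1 it was 3.57 with 3 counts put in for other wells, and its lower limit was 2.81. Fewer than 20 counts left the gene not measured in that set. Without set 3 the log2 ratio was 7.34.

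The 5 other wells with a Cldn18 count were looked at singly, after their values were seen. A pair of them held 18 and 22 Sftpc counts, 0.442% and 0.734% of their totals, below the Sftpc limit, and gave 1 and 2 of the 9 Cldn18 counts. A further 2 held 32 and 21 counts of the ciliated list with no Sftpc count, and gave 2 and 3 Cldn18 counts. The last held no Sftpc and no ciliated-list count, and gave 1 Cldn18 count. It held 6 counts of Ager, a gene of alveolar type 1 cells, beside 2 and 10 in the pair with Sftpc counts and 0 in the 2 with ciliated-list counts. Over the 8 other wells with at least 3 ciliated-list counts, Cldn18 had 118 CPM (38.4 to 276, 5 counts in 2 wells), against 8.64 CPM (2.35 to 22.1, 4 counts in 3 wells) in the remaining 82 other wells. Without the wells of ciliated genes, the log2 ratio of Sftpc over other wells was 6.08, in place of 5.02 with them. Cldn18 is also expressed in alveolar type 1 cells, and the sum over a list of 8 genes of that cell type was also highest in Sftpc wells. It came to 1687 CPM in Sftpc wells (7 of 8 with a count, Pdpn at 0), 561 CPM in Scgb3a1 wells (8 of 8) and 610 CPM in other wells (6 of 8, Rtkn2 and Cav1 at 0). Ager made up most of the sum in Sftpc wells, with 951 CPM there, 7.79 CPM in Scgb3a1 wells and 154 CPM in other wells. Members of the list did not move together: Hopx had 70.6, 83.8 and 196 CPM and Pdpn 0, 226 and 1.98 CPM in that order of classes. The part of these genes in the Cldn18 difference was not tested.

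Forms of Cldn18 that begin at separate first exons are known from lung and stomach, and the annotation used here has 4 coding transcripts with 3 start sites. Counts per gene cannot tell these forms apart. The 250 bases before each of the RefSeq start sites (GRCm38.p6) are shown because Cldn18 had the largest ratio among the 7 genes between Sftpc and other wells, and because the data do not say which start site was used. The first is chr9:99717268-99717517 and the second chr9:99710064-99710313, both on the minus strand and written 5′ to 3′.
Cldn18 upstream start: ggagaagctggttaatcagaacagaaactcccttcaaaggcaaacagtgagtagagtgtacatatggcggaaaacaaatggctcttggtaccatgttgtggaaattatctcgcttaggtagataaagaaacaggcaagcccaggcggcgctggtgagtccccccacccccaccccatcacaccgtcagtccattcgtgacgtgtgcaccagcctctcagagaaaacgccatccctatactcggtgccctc
Cldn18 downstream start: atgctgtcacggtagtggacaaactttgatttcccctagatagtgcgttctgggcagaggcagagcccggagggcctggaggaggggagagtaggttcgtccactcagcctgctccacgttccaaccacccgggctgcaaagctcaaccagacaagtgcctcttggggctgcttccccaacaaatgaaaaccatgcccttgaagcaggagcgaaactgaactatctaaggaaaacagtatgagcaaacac

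Capitals in the promoters printed here mark matches, on either strand, to 7 short motifs. The lung and endoderm factors searched were NKX2-1, whose core was written as CTCAAG, and the FOXA family, written as TGTTTAC. The CEBP family was searched as TTGCNNAA and the epithelial GRHL family as AACNGGTT. The others were the AP-1 motif with the letters TGANTCA, the GC-rich letters CCCGCC and the TATA box with the letters TATAAA. Neither Cldn18 window held a match, which says only that these letters are not in these 250 bases. Over the 250 bases before the start in 32851 RefSeq promoters, 13.3% held a match for NKX2-1, 3.17% for FOXA and 9.56% for CEBP. The shares were 1.79% for GRHL, 6.75% for AP-1, 32.5% for CCCGCC and 12.4% for the TATA box. All 7 members had an entry in the RefSeq promoter table.

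Cldn10 (chromosome 14, 118787908 to 118875489, plus strand), a claudin whose known forms make channels for cations or for anions, was lower in Sftpc wells. Counts per well ran to 2 in Sftpc wells, 4 in Scgb3a1 wells and 6 in other wells, with medians of 0, 1 and 1. Wells with a count were 2 of 63 Sftpc wells (3.17%, 0.387 to 11.0%), 44 of 74 Scgb3a1 wells (59.5%, 47.4 to 70.7%) and 67 of 90 other wells (74.4%, 64.2 to 83.1%). All but 2 Sftpc wells were thus at 0, where 30 Scgb3a1 wells and 23 other wells also lay. Pooled levels were 12.5 CPM in Sftpc wells (2.57 to 36.4, 3 counts), 136 CPM in Scgb3a1 wells (106 to 172) and 253 CPM in other wells (211 to 301), and no neighbouring intervals in this order overlapped. The ratio of Sftpc to other wells was 0.0492 (0.0100 to 0.147), and that of Sftpc to Scgb3a1 wells 0.0914 (0.0184 to 0.278). Scgb3a1 wells had 0.538 times the level of other wells (0.396 to 0.726), which excludes 1 but stays short of 2-fold, so it was not called.

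The pooled values of Cldn10 lay in the same order of classes within each set of columns, with 59.6, 156 and 255 CPM in Sftpc, Scgb3a1 and other wells of set 1, 0, 120 and 254 CPM in set 2, and 7.16, 117 and 247 CPM in set 3. Levels in other wells thus lay between 247 and 255 CPM in all 3 sets. The Sftpc values rest on 2, 0 and 1 counts, and the Scgb3a1 value of set 3 on 3 counts. Intervals of Sftpc and Scgb3a1 wells overlapped in set 1 (7.22 to 215 and 110 to 215) and set 3 (0.181 to 39.9 and 24.1 to 341). Those of Scgb3a1 and other wells also overlapped in sets 1 and 3. The log2 ratio of Sftpc over other wells was -4.35 with all sets, -5.71 without set 1 and -3.69 without set 3. The 2 Sftpc wells with Cldn10 counts held 1803 and 1456 counts of Scgb1a1, where the median Sftpc well held 34, and the first of them had the lowest Sftpc share inside the limit. Both of these wells also held Cldn18, with 2 and 6 counts, and their totals were 8806 and 7395. Among wells above 5000 counts, which include 8 Sftpc wells, the log2 ratio of Sftpc over Scgb3a1 wells was -1.22 and no longer called.

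The 250 bases before the RefSeq start sites of Cldn10 are shown beside those of Cldn18 because Cldn10 was the more counted of the members called lower in Sftpc wells. The first is chr14:118787621-118787870 and the second chr14:118854700-118854949, both on the plus strand of GRCm38.p6. Their base composition differs, at 36.0% and 72.4% G or C, with a median of 52.4% over the same 250 bases of all promoters. The second held 1 CTCAAG match at 77 bases before the start and 2 CCCGCC matches, and the first held no match. Gene counts do not say which start site was used here either.
Cldn10 upstream start: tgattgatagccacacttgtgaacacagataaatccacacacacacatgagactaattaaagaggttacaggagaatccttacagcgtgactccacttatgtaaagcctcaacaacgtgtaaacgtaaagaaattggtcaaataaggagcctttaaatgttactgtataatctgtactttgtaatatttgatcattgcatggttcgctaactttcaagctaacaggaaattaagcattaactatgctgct
Cldn10 downstream start: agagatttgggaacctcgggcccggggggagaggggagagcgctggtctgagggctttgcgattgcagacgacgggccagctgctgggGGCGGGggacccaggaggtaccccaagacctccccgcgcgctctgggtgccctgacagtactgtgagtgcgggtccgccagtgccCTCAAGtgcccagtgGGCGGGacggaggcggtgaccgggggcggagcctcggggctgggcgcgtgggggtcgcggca

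**Figure D3:**
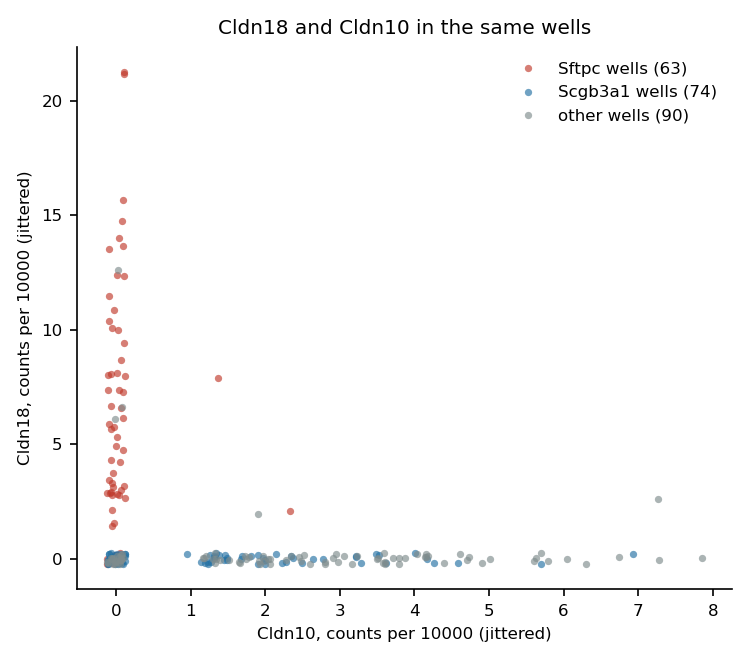
Cldn18 (vertical axis) against Cldn10 (horizontal axis) in each of the 227 kept wells, in counts per 10000 with a small jitter, coloured by class. Points lie along the axes, and 4 wells hold counts of both genes.

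Cldn18 and Cldn10 were rarely found in the same well. Of 227 wells, 53 held Cldn18 alone, 109 Cldn10 alone and 4 both, or 1.76% of wells, where the product of the single shares is 12.5%. With each well thinned to 3151 counts, the expected share with both was 0.937% and the product 6.88%. Within Sftpc wells only 2 held Cldn10, too few to read their overlap with Cldn18 inside that class. Cldn4 and Cldn18 shared 1 well of 227, beside a product of 6.31%. Values over all wells hold the class differences of each gene, so a share under the product does not show exclusion within a cell. Within Sftpc wells, Cldn3 and Cldn18 shared 43 of 63 wells (68.3%, product 64.2%). Over all 227 wells Cldn3 and Cldn18 shared 47 (20.7%, product 22.0%), and Cldn3 and Cldn10 shared 106 (46.7%, product 43.6%). Cldn7 and Cldn10 shared 54 wells (23.8%, product 21.3%).

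Cldn4 (chromosome 5, 134945119 to 134946934, minus strand), a claudin of many secretory epithelia known as a barrier to cations, had 1 count in all Sftpc wells. Counts per well ran to 1 in Sftpc wells, 6 in Scgb3a1 wells and 3 in other wells, each with a median of 0. Wells with a count were 1 of 63 Sftpc wells (1.59%, 0.0402 to 8.53%), 30 of 74 Scgb3a1 wells (40.5%, 29.3 to 52.6%) and 26 of 90 other wells (28.9%, 19.8 to 39.4%). In wells thinned to equal depth these shares were 2.10, 25.8 and 19.1%, over 44, 74 and 86 wells deep enough, so the gap between Sftpc wells and the rest was also present at 1 depth. Pooled levels were 4.15 CPM in Sftpc wells (0.105 to 23.1), 99.4 CPM in Scgb3a1 wells (74.0 to 131) and 63.3 CPM in other wells (43.3 to 89.4). The ratio of Sftpc to other wells was 0.0656 (0.00161 to 0.393), and that of Sftpc to Scgb3a1 wells 0.0418 (0.00104 to 0.244). Scgb3a1 and other wells differed by 1.57-fold with an interval of 0.989 to 2.52, which includes 1.

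The call on Cldn4 against other wells rests on 33 counts. It was lost without set 2 (log2 ratio -3.37), within each single set, all with under 20 counts, and among wells above 5000 counts, where 8 Sftpc wells held no Cldn4 count. Without set 3, which holds the only Sftpc well with a Cldn4 count, the log2 ratio was -1.11 with 3 counts put in for Sftpc wells. The promoter of Cldn4 is shown because it is the only one of the printed windows with AP-1 matches. They lie at 240 and 158 bases before the start, the nearer of them directly after a CCCGCC match. It is chr5:134946935-134947184, on the minus strand of GRCm38.p6.
Cldn4 start: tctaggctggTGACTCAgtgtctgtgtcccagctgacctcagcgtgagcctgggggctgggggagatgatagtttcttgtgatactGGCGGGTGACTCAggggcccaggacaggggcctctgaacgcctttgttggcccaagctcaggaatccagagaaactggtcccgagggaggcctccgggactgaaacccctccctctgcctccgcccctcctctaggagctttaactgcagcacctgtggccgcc

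Cldn3 (chromosome 5, 134986214 to 134987472, plus strand), a sealing claudin encoded near Cldn4 on the opposite strand, was found in all 3 classes. Counts per well ran from 0 to 8 in Sftpc wells, 0 to 17 in Scgb3a1 wells and 0 to 10 in other wells, each with a median of 2, so the classes overlapped. Wells with a count were 77.8, 90.5 and 92.2% of Sftpc, Scgb3a1 and other wells, but 80.5, 69.5 and 77.7% in wells thinned to equal depth. The lower share in Sftpc wells is therefore not seen at equal depth. Pooled levels were 536 CPM in Sftpc wells (447 to 637), 423 CPM in Scgb3a1 wells (368 to 483) and 513 CPM in other wells (452 to 579). The ratio of Sftpc to other wells was 1.05 (0.840 to 1.30). That of Scgb3a1 to other wells was 0.825 (0.686 to 0.992), and that of Sftpc to Scgb3a1 wells 1.27 (1.01 to 1.58). The sign of the first log2 ratio turned with scaling and set, over a range of -0.52 to 0.61. Its exons overlap those of Wbscr25 on the opposite strand, and counts were not stated to use strand, but Wbscr25 had 4 counts in kept wells.

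Cldn7 (chromosome 11, 69964779 to 69967885, plus strand), a claudin that binds Epcam in other epithelia, had its highest level in Scgb3a1 wells. Counts per well ran to 2, 4 and 3 in Sftpc, Scgb3a1 and other wells. Wells with a count were 25.4% of Sftpc wells (15.3 to 37.9%), 62.2% of Scgb3a1 wells (50.1 to 73.2%) and 38.9% of other wells (28.8 to 49.7%), and 22.1, 36.6 and 24.0% at equal depth. Pooled levels were 78.9 CPM in Sftpc wells (47.5 to 123), 150 CPM in Scgb3a1 wells (118 to 188) and 89.1 CPM in other wells (65.0 to 119). Sftpc and other wells did not differ beyond their intervals, with a ratio of 0.886 (0.490 to 1.55). Scgb3a1 wells were 1.68-fold above other wells (1.15 to 2.49), and Sftpc wells had 0.526 times the level of Scgb3a1 wells (0.301 to 0.878). Both intervals exclude 1 and both values stay short of 2-fold. The second was called lower in 10 of 18 alternative settings, over which its log2 ratio ranged from -2.36 to -0.13. Among them were TMM factors (-1.30), DESeq2 size factors (-1.24), the mean of per-well CPM (-1.04) and the table without set 1 (-1.20) or set 3 (-1.25).

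Tjp1 (chromosome 7, 65296165 to 65527781, minus strand), which encodes ZO-1, had no class difference that was detectable at this depth. It had 15, 18 and 27 counts in Sftpc, Scgb3a1 and other wells, at most 2, 1 and 5 in a well. Pooled levels were 62.3 CPM (34.9 to 103), 35.1 CPM (20.8 to 55.4) and 53.4 CPM (35.2 to 77.7) in that order, and neighbouring intervals overlapped. The ratio was 1.17 for Sftpc over other wells (0.577 to 2.27), 0.656 for Scgb3a1 over other wells (0.341 to 1.24) and 1.78 for Sftpc over Scgb3a1 wells (0.834 to 3.73), so differences of about 2-fold are not excluded. Ocln (chromosome 13, 100496507 to 100552718, minus strand) had 2, 6 and 10 counts, never more than 1 in a well. It had 8.31 CPM in Sftpc wells (1.01 to 30.0), 11.7 CPM in Scgb3a1 wells (4.29 to 25.4) and 19.8 CPM in other wells (9.49 to 36.4), and no comparison of it reached 20 counts.

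**Figure D4:**
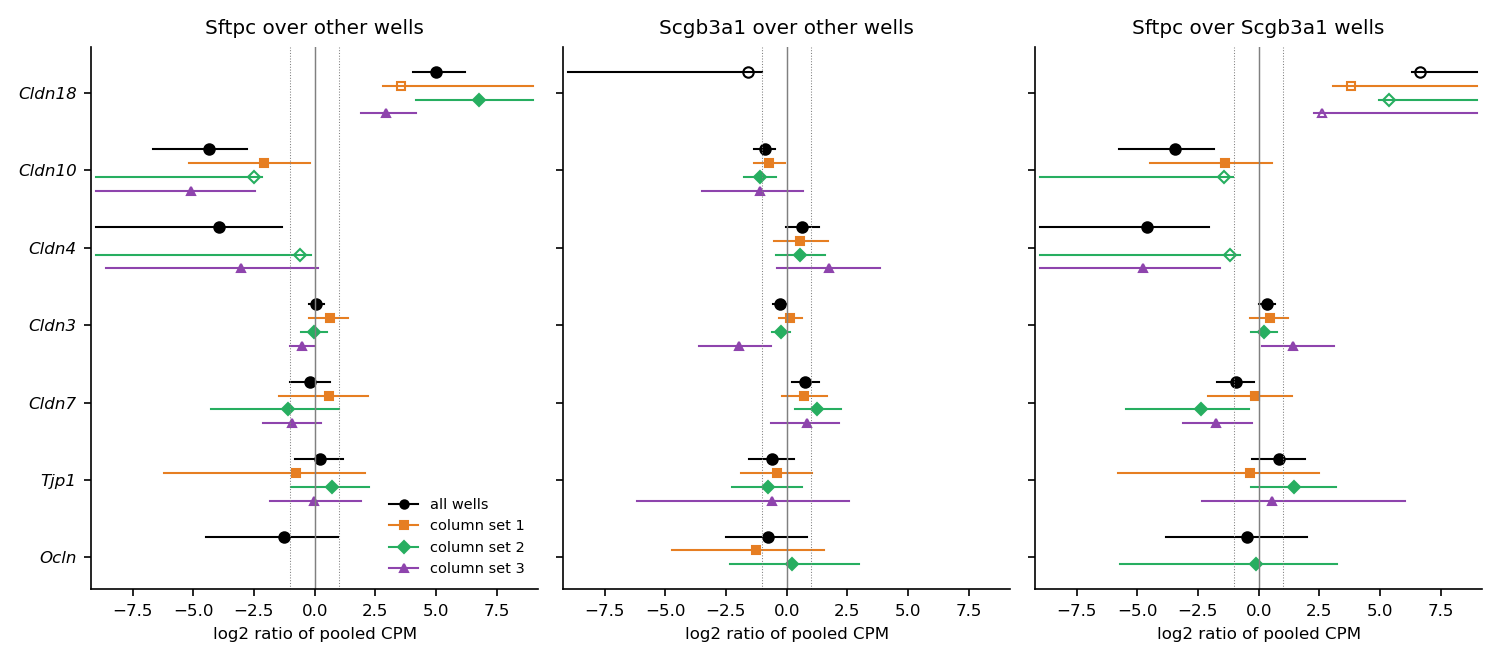
Log2 ratio of pooled CPM for each gene in the 3 comparisons, for all wells (black) and within each set of 96 columns, with exact 95% binomial intervals (open symbols take 3 counts for a class at 0, lines at the panel edge go beyond it, dotted lines mark 2-fold). Cldn18 lies right of 0 and Cldn10 left of 0 in each set where Sftpc wells are compared with other wells.

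Over single wells, the genes most like Cldn18 were Sftpc, the lamellar body gene Lamp3 and Napsa, with Pearson r of 0.782, 0.777 and 0.771 over 227 wells, among 1743 genes with a count in at least 25% of wells and on the scale log2(1 + counts per 10000). Sftpc is the gene that defined the class. Within Sftpc wells the same r were 0.109, 0.0934 and 0.0014, and within other wells, where 5 wells held Cldn18, they were 0.179, 0.362 and 0.318. Those most like Cldn10 were Cyp2f2 (0.550), Scgb1a1 (0.543) and the retinaldehyde dehydrogenase Aldh1a1 (0.532). Within Scgb3a1 wells these were 0.00549, -0.131 and 0.138, and within other wells 0.234, 0.363 and 0.0364. Those in Sftpc wells rest on 2 wells with a Cldn10 count. Cldn4 went most with the aldehyde dehydrogenase Aldh3a1 (0.340), the glutathione transferase Gsto1 (0.330) and the keratin Krt19 (0.309). Within Scgb3a1 wells these were 0.236, 0.104 and 0.122, and within other wells 0.132, 0.118 and 0.142. Sftpc wells held 1 Cldn4 count. Cldn3 reached 0.309 with the cyclophilin gene Ppia (0.0914, 0.342 and 0.462 within Sftpc, Scgb3a1 and other wells). Cldn7 reached 0.304 with Anxa1 (0.0608, 0.299 and 0.202 in the same order). All wells share depth and class effects, and the values are descriptions.

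The other claudins were mostly absent. Of 22 further claudin genes in the table, 8 had a count in kept wells and 2 reached 20 counts. Cldn12 had 24.9, 15.6 and 17.8 CPM in Sftpc, Scgb3a1 and other wells, from 23 counts. Cldn22 had 0 counts in Sftpc wells, 27 counts in 18 Scgb3a1 wells (52.6 CPM, 34.7 to 76.5) and 0 counts in other wells. With 3 counts put in for other wells, Scgb3a1 wells were 8.86-fold higher than other wells. The lower limit of the exact interval was 6.73-fold. Cldn22 (chromosome 8, 47824482 to 47825476, plus strand) is a single exon that overlaps an exon of Wwc2 on the opposite strand, and without strand their reads cannot be told apart. Wwc2 had 8, 9 and 10 counts in the 3 classes, and 5 of the 18 wells with Cldn22 also held Wwc2. The endothelial claudin Cldn5 had 0, 1 and 1 counts.

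Junction genes around the claudins were described by lists chosen with earlier results of these data known. Among the 13 other tight junction membrane genes, 4 were measured for Sftpc over other wells, of which 0 were higher and 1 lower (median log2 ratio -0.29, against 0.18 over all genes). Of all measured genes 14.6% were called higher and 7.34% lower there, and 4 genes are too few to describe the group. The lower gene was Cxadr, the coxsackievirus and adenovirus receptor, with 41.5 CPM in Sftpc wells and 87.1 CPM in other wells (ratio 0.477, 0.214 to 0.962), a call lost without set 3 of the columns, where the log2 ratio was -1.40 in place of -1.07 and its interval held 1. F11r, which encodes the junctional adhesion molecule JAM-A, had 120 CPM in Sftpc wells, 99.4 CPM in Scgb3a1 wells and 129 CPM in other wells. For Scgb3a1 over other wells, 1 of 5 was higher and 0 lower (median 0.14, against -0.02), where 6.77% and 7.12% of all genes were called. That gene was Ildr1, an angulin of the corners where 3 cells meet, with 52.6 CPM in Scgb3a1 wells and 15.8 CPM in other wells (3.32-fold, 1.47 to 8.46).

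Calls of scaffold and polarity genes of the junction are read against the shares of all measured genes. These were 14.6% higher and 7.34% lower for Sftpc over other wells. They were 6.77% and 7.12% for Scgb3a1 over other wells, and 17.3% and 10.5% for Sftpc over Scgb3a1 wells. Of 27 in the table, 14 were measured for Sftpc over other wells, with 1 higher and 0 lower (median 0.25, against 0.18). The higher gene was Pard3, a polarity scaffold of the junction, with 99.7 CPM in Sftpc wells and 31.7 CPM in other wells (3.15-fold, 1.60 to 6.34). In Scgb3a1 wells 0 of 14 were higher than in other wells and 2 lower (median -0.08, against -0.02). These were the atypical kinase Prkcz, with 21.4 CPM in Scgb3a1 wells and 65.3 CPM in other wells (ratio 0.328, 0.150 to 0.666), and Cgnl1, which encodes paracingulin, with 39.0 and 85.1 CPM in the same order (0.458, 0.255 to 0.795). For Sftpc over Scgb3a1 wells 3 of 14 were higher, namely Prkcz (4.07-fold, 1.88 to 9.35), Pard3 (2.84-fold, 1.48 to 5.56) and Magi3 (2.52-fold, 1.04 to 6.21, lost with TMM factors). The cingulin gene Cgn had 91.4, 131 and 146 CPM in Sftpc, Scgb3a1 and other wells.

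Calls of adherens junction and desmosome genes are read against the 14.6% higher and 7.34% lower of all genes for Sftpc over other wells. For Scgb3a1 over other wells these shares were 6.77% and 7.12%, and for Sftpc over Scgb3a1 wells 17.3% and 10.5%. The 5 or 7 measured desmosome genes are too few to describe that group. For Sftpc over other wells, 1 of 10 measured adherens genes was higher and 0 lower (median 0.09, against 0.18), the adhesion molecule Nectin1 with 133 CPM in Sftpc wells and 7.92 CPM in other wells (16.8-fold, 5.96 to 65.4), with under 20 counts when set 3 was left out. With TMM factors plakoglobin (Jup) was also called, lower at a log2 ratio of -1.31. E-cadherin (Cdh1) had 345, 312 and 321 CPM in Sftpc, Scgb3a1 and other wells. Against other wells, 0 of 9 were higher and 1 lower in Scgb3a1 wells, Nectin2, with 52.6 CPM in Scgb3a1 wells and 166 CPM in other wells (ratio 0.316, 0.197 to 0.493). Of the desmosome list 0 of 5 were called for Sftpc over other wells. In Scgb3a1 wells 1 of 7 was higher than in other wells and 1 lower, the p53 target Perp with 193 CPM in Scgb3a1 wells and 29.7 CPM in other wells (6.50-fold, 3.76 to 12.0), and periplakin (Ppl) with 37.0 and 95.0 CPM in the same order (0.390, 0.216 to 0.675). Between Sftpc and Scgb3a1 wells, 2 of 10 adherens genes were higher in Sftpc wells, Nectin1 (6.20-fold, 3.05 to 13.6, under 20 counts without set 3) and Nectin2 (3.55-fold, 2.16 to 5.96), where 17.3% of all genes were higher. In that comparison 0 were lower, and 3 under TMM factors. In the same comparison 2 of 5 desmosome genes were lower, Perp (ratio 0.172, 0.0724 to 0.353) and envoplakin (Evpl, 0.0969, 0.00235 to 0.600, on 1 count in Sftpc wells and lost without set 3 at a log2 ratio of -0.60), and 1 was higher, Ppl (2.13-fold, 1.07 to 4.26), a call lost with TMM factors.

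The Epcam and matriptase axis controls claudin-7 stability in the intestine. Epcam, one of the sorted proteins, had 129, 79.9 and 87.1 CPM in Sftpc, Scgb3a1 and other wells, and was called in no comparison. The matriptase gene St14 had 33.2 CPM in Sftpc wells and 71.3 CPM in other wells (ratio 0.467, 0.187 to 1.02), and its inhibitor Spint1 had 78.9 and 144 CPM in the same order (0.546, 0.311 to 0.915). Neither was called for Sftpc over other wells, but both were called lower there with TMM factors, at log2 ratios of -1.42 and -1.19. For Sftpc over Scgb3a1 wells St14 was called lower (ratio 0.416, 0.168 to 0.899). That call was lost without set 3 of the columns, at a log2 ratio of -0.69. Among regulators of epithelial junctions, the lung factor Nkx2-1 was 2.28-fold higher in Sftpc wells than in other wells (log2 interval 0.59 to 1.79), a call lost with TMM factors at a log2 ratio of 0.87, and the epithelial factor Elf3 was 2.76-fold higher in Scgb3a1 wells than in other wells (1.99 to 3.88). These were the 1 of 4 and 1 of 5 measured regulators that were higher, with 0 lower in either comparison. Of all measured genes, 14.6% were higher and 7.34% lower in the first comparison, and 6.77% and 7.12% in the second. So few regulators say nothing about the group.

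**Figure D5:**
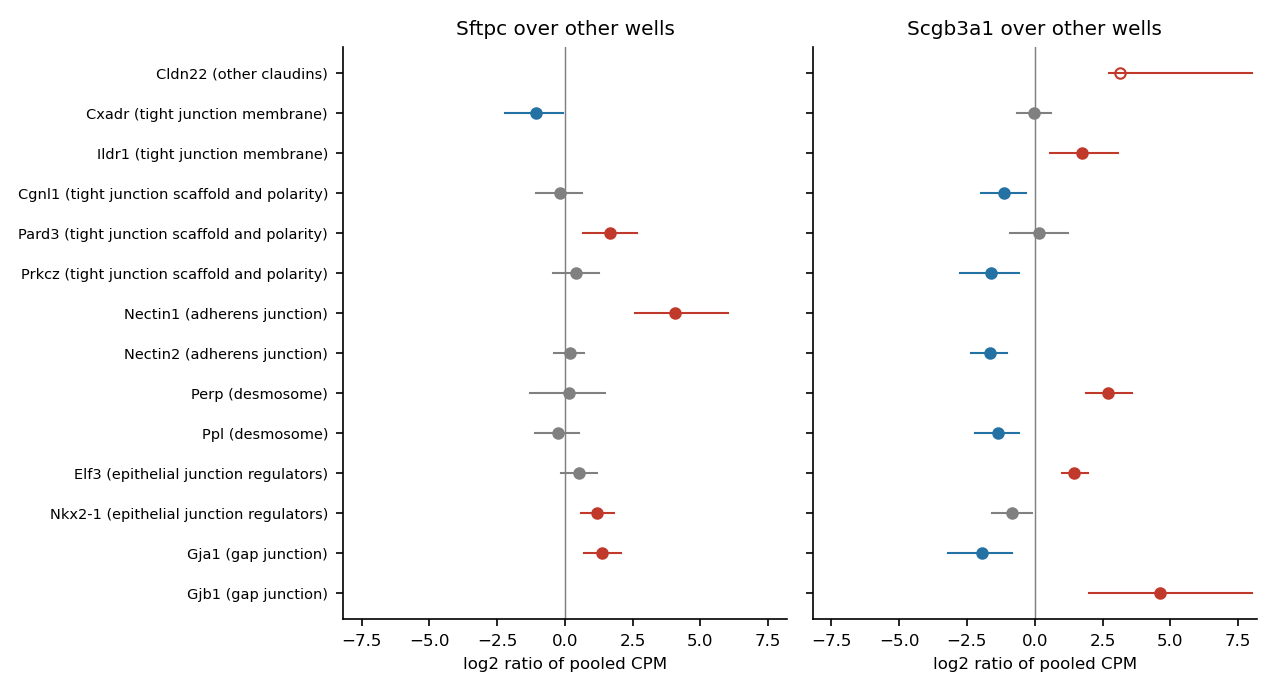
Log2 ratio of pooled CPM with exact 95% binomial intervals, for listed genes that were called in either comparison with other wells. The lists, given in brackets, are other claudin, tight junction, adherens junction, desmosome, regulator and gap junction. Red is higher, blue lower and grey neither. An open symbol takes 3 counts for a class at 0. Lines at the panel edge go beyond it, and a gene without 20 counts has no point. Nectin1 lies at 4.07 for Sftpc over other wells, and Perp at 2.70 for Scgb3a1 over other wells.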

How the data were processed

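The authors deposited 1 table of raw whole-number counts, with gene symbols in rows and wells in columns. Per the labels' protocols, spike-in RNA was added to each well, RNA was fragmented, and reverse transcription used an oligo-dT primer that carries a molecular barcode. Per the submitters' processing notes, reads were aligned with STAR to mm10. For the annotation, the counting tool and barcode collapsing the entry is the same: not given in the sources used here. If they were not collapsed, all intervals are too narrow.

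Wells with a total above 10 times the higher control well's were kept (227 of 286). No doublet caller was run. Counts were summed per class and scaled to CPM. Levels have exact Poisson intervals, shares Clopper-Pearson intervals and ratios exact conditional binomial intervals, all at 95%. A class at 0 was given 3 counts. Equal depth means the expected share after drawing 3151 counts per well without replacement, the 10th percentile of totals, which left out 23 wells. Levels are not compared between genes. The ratio code was tested on simulated data. Of 24781 symbols, 24241 matched GENCODE M21, which gave coordinates, and promoters are from RefSeq (GRCm38.p6). The members, the well classes and the lists were chosen with earlier results of these data known. Text genes were the members, other claudins with 20 counts, and called or most counted list genes. Alternatives were TMM factors (edgeR 4.0.16), DESeq2 1.42.0 size factors, other totals, limits, folds and column sets. Scripts ran in Python 3.11.15 (numpy 2.4.6, scipy 1.17.1, pandas 2.3.3) and R 4.3.3. A planned comparison of the protein sequences was not made. Some listed genes are not reported here.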

Additional observations from a re-analysis of the deposited data

How the results depend on the processing

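No paired analysis was possible because numbers in the titles only name wells and all sorted wells are 1 sample. No well passed both class limits, so leaving such wells out was not run. For Sftpc over other wells, the count of members called higher was 1 and became 0 within column set 1. The count called lower was 2 and became 1 with well totals above 5000, without column set 2, and within sets 1, 2 and 3. For Scgb3a1 over other wells, the count called higher was 0 and became 1 within set 2 and at 1.5-fold (Cldn7 in both). The count called lower was 0 and became 1 without set 1, within set 2 and at 1.5-fold (Cldn10), within set 3 (Cldn3) and with no count minimum (Cldn18). For Sftpc over Scgb3a1 wells, the count called higher was 1 and became 0 within set 1 and 2 within set 3. The count called lower was 2 and became 0 with totals above 5000 and within set 1, and 1 within set 3, where that call was Cldn7. It was 3, with Cldn7 added, in the other 9 settings that call Cldn7, among them all 3 scalings and the mean of per-well CPM. Smaller sets hold fewer counts, so fewer members are measured in them. For the remaining settings the cause was not tested. No called member changed sign in any setting that gave a ratio. A class at 0 could not record such a change, since no ratio was taken where its 3 counts would turn the sign. This left out Cldn4 in Sftpc wells over either other class within set 1. Log2 ratios of Sftpc over other wells ranged from 2.93 to 7.34 for Cldn18, -5.71 to -2.10 for Cldn10 and -4.25 to -0.10 for Cldn4. Where a class held 0 counts, these took 3 counts for it. Over all genes, Sftpc over other wells gave 563 higher calls and 373 with TMM factors. Sftpc over Scgb3a1 wells gave 664 higher and 402 lower calls, and 431 and 624 with TMM factors. With no count minimum, Sftpc over other wells gave 896 higher calls, Scgb3a1 over other wells 512 lower calls in place of 323, and Sftpc over Scgb3a1 wells 1127 higher calls. With totals above 5000, Sftpc over other wells gave 167 higher and 63 lower calls in place of 563 and 283, and Sftpc over Scgb3a1 wells 237 and 129. Without column set 2 or 3, Sftpc over other wells gave 343 or 332 higher calls and Sftpc over Scgb3a1 wells 423 or 384. Lower calls were 145 for Sftpc over other wells without set 3, and 249 or 260 for Sftpc over Scgb3a1 wells without set 2 or 3. Scgb3a1 over other wells gave 161 higher and 215 lower calls without set 2, in place of 307 and 323. Within single sets the calls went down to 26 higher and 67 lower calls for Scgb3a1 over other wells in set 3. List calls under other scalings and without column set 3 were added after seeing the data. Without set 3 Epcam was called higher in Sftpc than in other wells, at a log2 ratio of 1.01. Depth limits Ocln, Tjp1 and Cldn4 most, with 18, 60 and 84 counts in all kept wells.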

Other observations

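Of 10 gap junction genes, whose channels join neighbouring cells, 2 were measured for Sftpc over other wells, with 1 higher and 0 lower, where 14.6% and 7.34% of all genes were called. So few genes say nothing about the group. The higher gene was Gja1, the connexin 43 gene, with 175 CPM in Sftpc wells and 67.3 CPM in other wells (2.59-fold, 1.61 to 4.20). For Scgb3a1 over other wells, 1 of 3 was higher and 1 lower, where 6.77% and 7.12% of all genes were called. Gja1 was the lower gene, with 17.5 CPM in Scgb3a1 wells and 67.3 CPM in other wells (ratio 0.261, 0.110 to 0.555). Gjb1, the connexin 32 gene, was the higher gene, with 25 counts in Scgb3a1 wells and 1 count in other wells (24.6-fold, 4.03 to 1011).

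The 59 wells of low total that were not kept took no part in the comparisons and were split by the same shares of Sftpc and Scgb3a1. Cldn18 had 19 counts in 27 Sftpc wells (599 CPM, 361 to 935), 0 in 3 Scgb3a1 wells and 0 in 29 other wells. Cldn3 had 567 CPM in Sftpc wells (336 to 897), 228 in Scgb3a1 wells (5.78 to 1271) and 404 in other wells (194 to 744). Cldn10 had 1, 0 and 2 counts and Cldn4 had 1, 0 and 1 counts in the same classes, too few to compare.

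Among the kept other wells, the 8 with at least 3 ciliated-list counts had 898 CPM of Cldn3 (636 to 1233), against 477 CPM (417 to 545) in the remaining 82, a split made after the values were seen.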
